A study of Mus musculus with 18 samples.

Results

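The comparison was between 1 Kdm3a knockout clone of the mouse pancreatic tumor cell line 6419c5, titled Kdm3aKO1 and called clone 1 here, and wild-type (WT) cells of that line. It rests on 6 of the 18 libraries of the study, 3 of WT and 3 of clone 1. The other 12 libraries, 3 of another 6419c5 knockout clone (Kdm3aKO2, clone 2) and 9 of the line 6694c2 (WT and its knockout clones), entered the estimate of the spread between libraries and the checks named below. All cells were of strain C57BL/6, received no treatment, had grown as implants under the skin and were sorted out of the tumors before RNA was extracted with a Qiagen RNeasy micro kit. The labels do not give the marker used for sorting, how the gene was disrupted, or whether each library of a group was from a tumor of its own. The p-values below therefore measure the spread between these libraries, which may be technical. All 3 knockout libraries come from 1 clone, so loss of Kdm3a and other properties of that clone cannot be told apart. Of the 24493 gene entries in the deposited table, the 13377 with a mean of at least 1 TPM (transcripts per 1e+06 transcripts) over the 6 libraries were tested.

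Kdm3a encodes a demethylase that takes methyl groups off the ninth lysine of histone H3, where they mark silent chromatin. Interferons are cytokines that act through JAK kinases and STAT transcription factors. Interferon gamma acts through a DNA element called GAS, and type I interferons act mainly through the interferon-stimulated response element (ISRE). Their target genes encode GTPases that attack intracellular pathogens, chemokines that draw T cells, and the machinery that presents peptides on major histocompatibility complex (MHC) molecules. Pancreatic tumor cells can also express genes of the stomach and gut lining, among them trefoil factors, gastrokines and Reg proteins, under transcription factors such as FOXA1.

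The deposited values are TPM, so the read depth of each library is unknown and no counting interval can be given. Each of the 6 libraries had between 12766 and 13307 genes at 1 TPM or more. Across genes, libraries of the same group correlated at 0.947 to 0.977 and libraries of different groups at 0.913 to 0.961 (Pearson, log2(TPM + 1), a description over genes that are not independent). The entry Mir6236 alone took 7.18% to 16.6% of all TPM, which moves the TPM of every other gene because the total is fixed.

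The targeted gene, Kdm3a (chromosome 6, 71588972 to 71632990, minus strand, GRCm38), was at 38.2, 24.1 and 32.9 TPM in WT and at 21.6, 24.6 and 21.6 TPM in clone 1. The groups overlapped, and the difference did not pass the test (-0.45, SE 0.21, adjusted p = 0.29, from limma with Benjamini-Hochberg adjustment over all genes tested). Differences and their standard errors (SE) are on the log2(TPM + 1) scale throughout, on which low genes change by less than their TPM do. A deletion or insertion within a gene need not lower its transcript, so gene totals do not check the genotype. Of the 16 tested genes that encode enzymes of H3K9 methylation, 1 passed, against 5.01% of all genes tested: Kdm4a, another demethylase, rose from 22.7, 23.2 and 22.6 to 28.2, 28.5 and 30.7 TPM (0.34, SE 0.07, adjusted p = 0.00957; adjusted p = 0.0556 without clone 1 replicate 3, 0.178 with median-of-ratios scaling and 0.131 with quantile normalization).

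At an adjusted p under 0.05, 443 genes were higher in clone 1 (3.31% of the genes tested) and 227 were lower (1.7%), 5.01% in all. Of the 670, 365 differed by less than 1 on the log2 scale, while 62 were higher and 21 lower by 2 or more. The libraries of WT and clone 1 did not overlap for 663 of the 670, against 19% of all genes tested (13.2% higher and 5.8% lower). The balance of directions depended on the scaling: 66.1% of the calls were higher as deposited, 53% with median-of-ratios scaling, 53.9% without the 20 most abundant genes and 48.5% with quantile normalization. A fit of the 6 libraries alone called 185 genes higher and 83 lower, and of the called genes described below it did not call Acta1, Ak4, Atf3, Car9, Cdh3, Chil3, Ckm, Cldn4, Cx3cl1, Cxcl11, Cybb, Egr3, Elf3, Fosl1, G6pdx, Gata4, H2-Aa, H2-Ab1, Ifit3, Irf9, Kdm4a, Klf5, Krt79, Samhd1, Sox9, St14, Tmem173, Tnnc2 and Tnnt3 (adjusted p 0.0574 to 0.27). Without WT replicate 1 the genes lower fell to 137, and without clone 1 replicate 3 the genes higher fell to 292. Without 3 libraries that stood apart by their macrophage or endothelial genes, 1 of them WT replicate 3, 705 were higher and 301 lower.

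**Figure D1:**
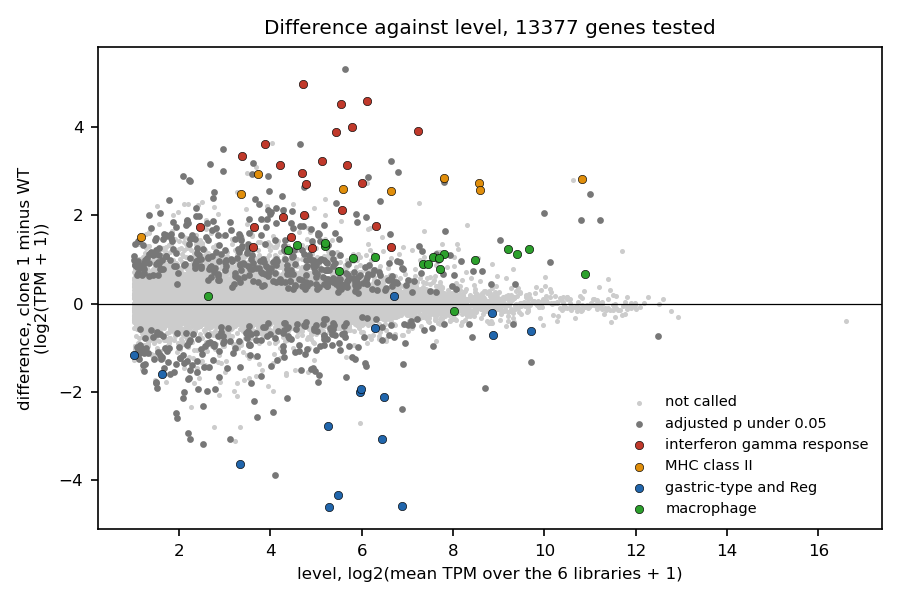
Each point is 1 of the 13377 genes, with its level over the 6 libraries on the x axis and the difference between clone 1 and WT on the y axis, both on log2 scales. The 24 interferon gamma response genes and the MHC class II genes lie above 0, the macrophage genes mostly at about 1 without being called, and 10 gastric-type and Reg genes are among the calls below 0.

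Sorted tumor cells from an implant can carry RNA of macrophages, fibroblasts and other cells, and in such bulk RNA more cells of a type and more RNA per cell cannot be told apart. Macrophage content was measured by an index, the mean log2(TPM + 1) of 10 macrophage genes. It was 4.81, 5.57 and 7.48 in the WT libraries and 5.92, 7.91 and 7.52 in those of clone 1, so the groups overlapped. The difference of 1.16 gave p = 0.2 in a two-sided exact permutation test (n = 3 per group, smallest p possible 0.1). This macrophage index difference was 0.59 without WT replicate 1, 1.92 without WT replicate 3, 1.76 without clone 1 replicate 1 and 0.76 without clone 1 replicate 2. C1qa, a complement gene of macrophages, stood at 151, 299 and 1235 TPM in WT and at 383, 1574 and 1221 TPM in clone 1. WT replicate 3 was thus at about the level of clone 1 replicate 3, and clone 1 replicate 1 was close to WT replicate 2. Of the 20 macrophage genes 1 was called, against 5.01% of all genes tested. This was Cybb, which encodes a subunit of the phagocyte oxidase (19.9, 13.6 and 28.5 TPM in WT, 50.0, 49.9 and 51.6 TPM in clone 1, difference 1.31). The median of the macrophage genes was 1.05, against 0.05 for all genes tested. The summed level of all 20 ran from 1810 to 9633 TPM in WT and from 3204 to 10575 TPM in clone 1.

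Fibroblast RNA was low in every library but differed between the groups without overlap. The fibroblast index, built in the same way from 10 genes, was 2.81, 2.65 and 2.57 in WT and 3.32, 3.32 and 3.35 in clone 1 (difference 0.66, two-sided exact permutation p = 0.1, the smallest that 3 against 3 allows). Of 19 tested fibroblast genes 1 was called, against 5.01% of all genes tested. This was the collagen gene Col5a1 (22.4, 26.1 and 17.2 TPM in WT, 49.5, 39.2 and 44.8 TPM in clone 1, difference 1.0, adjusted p = 0.0123, or 0.0529 without WT replicate 3). Groups did not overlap for 15 of the 19, all higher in clone 1, against 13.2% of all genes tested. Summed over the 20 listed genes the level was 385 to 719 TPM in WT and 1177 to 1226 TPM in clone 1. Skeletal muscle, which lies beneath a subcutaneous implant, gave 5 calls among 8 tested genes, all higher: Ckm, Mylpf, Tnnc2, Tnnt3 and Acta1. Acta1, the skeletal actin gene, was at 1.33, 1.83 and 3.90 TPM in WT and at 5.46, 41.2 and 15.9 TPM in clone 1, with replicate 2 highest. These muscle calls fell to 0 without WT replicate 2 or clone 1 replicate 2, to 1 without WT replicate 1 and to 2 without clone 1 replicate 3. None of the 9 endothelial genes was called by limma (2 at an unadjusted p under 0.05, median 0.97, summed level 42.0 to 47.3 TPM in WT and 67.5 to 76.3 TPM in clone 1).

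Lymphocyte genes were at low levels. Cd3e, a subunit of the T cell receptor complex, reached at most 0.464 TPM and Cd8a at most 0.527 TPM in the 6 libraries, and Ncr1, an NK cell receptor gene, was listed at 0 in all of them. Nkg7, a granule gene of NK and T cells, was listed at 0 in WT and at 1.055, 0.352 and 0.552 TPM in clone 1. The summed level of the 14 listed T and NK cell genes was 5.38 to 12.7 TPM in WT and 20.1 to 33.5 TPM in clone 1, without overlap. Of the 5 tested none passed by limma, and 3 had an unadjusted p under 0.05. Ccl5, a chemokine gene shared by T cells and other cells, was at 0.786, 4.12 and 1.16 TPM in WT and at 11.5, 6.32 and 13.5 TPM in clone 1 (2.02, SE 0.57, adjusted p = 0.0557). No B cell gene reached the level for testing. None of the 7 neutrophil or 3 pericyte genes was called by limma (2 and 1 at an unadjusted p under 0.05), and neither were the 4 adipocyte genes, the 4 erythroid genes or the single acinar and Schwann cell genes tested (0 at an unadjusted p under 0.05). Of the 6 dendritic cell genes Zbtb46, a transcription factor gene, was higher (1.08, 0.83 and 1.36 TPM in WT, 3.71, 3.47 and 3.14 TPM in clone 1, difference 1.09), and of the 12 genes of alternatively activated macrophages Chil3, a chitinase-like gene, was higher (4.22, 5.59 and 2.72 TPM in WT, 9.92, 18.6 and 13.6 TPM in clone 1, difference 1.54). The differences of these 12 ran from -1.31 to 2.81, and no gene among them was called lower. Their groups did not overlap for 3 genes that were higher and 1 that was lower, against 13.2% and 5.8% of all genes tested. With both indices as covariates 1 of the 12 was called higher and 3 were called lower. The call of Chil3 was lost without WT replicate 1 (adjusted p = 0.0538), WT replicate 3 (0.0719), clone 1 replicate 2 (0.0927) or clone 1 replicate 3 (0.0633), and with both covariates (0.0959). Of 3 skin keratinocyte genes the keratin gene Krt79 was lower (-1.40), a call lost without clone 1 replicate 2 (adjusted p = 0.0578) and with both covariates (0.0665).

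To set genes that move with macrophage or fibroblast RNA apart from the others, each gene was correlated with both indices over the 12 libraries that the comparison does not use. A gene was said to follow an index where its deviations from the group means correlated with those of the index at 0.7 or more. Within groups the macrophage index varied mainly in 6694c2 WT (3.69, 5.37 and 2.23) and 6694c2 Kdm3aKO2 (3.37, 3.43 and 6.33). The fibroblast index varied mainly in 6694c2 Kdm3aKO2 (2.08, 1.99 and 3.70). Whether a gene follows an index or neither thus rests largely on these few libraries. Of the genes tested, 1009 (7.54%) followed the macrophage index, 513 (3.84%) the fibroblast index and 11855 (88.6%) neither. Of the 443 genes higher in clone 1, 63 followed the macrophage index, 29 the fibroblast index and 351 (79.2%) neither. Of the 227 lower, 5, 9 and 213 (93.8%) did so. The median difference was 0.38 for all genes that followed the macrophage index, 0.35 for the fibroblast index and 0.03 for the rest. The indices themselves moved together over the 12 libraries (r = 0.628). With both indices as covariates in the model, 322 of the 443 and 160 of the 227 were still called. In that fit 373 genes (2.79%) were higher and 211 (1.58%) lower, 4.37% in all. The fibroblast index varied little within WT or clone 1 (SD 0.12 and 0.014, difference between them 0.66). Its slope in this fit thus also rests largely on 6694c2 Kdm3aKO2. A call kept with both covariates therefore cannot set a gene apart from fibroblast RNA.

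**Figure D2:**
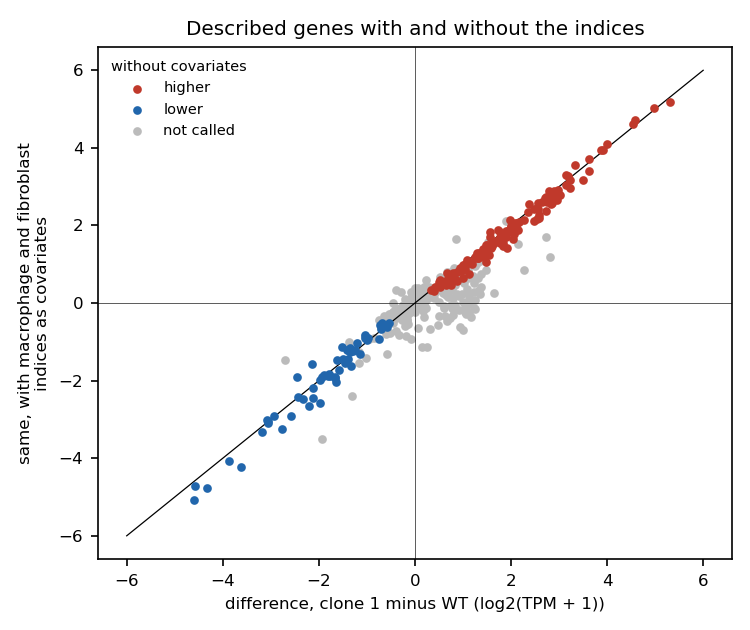
Each point is a gene of the lists or one described in the text, with its difference between clone 1 and WT as fitted on the x axis and the difference with the macrophage and fibroblast indices as covariates on the y axis, both in log2(TPM + 1). Called genes lie near the line of equality, such as Ubd at 4.98 and 5.02, while genes that were not called, macrophage genes among them, lie mostly below the line between 0 and 2 on the x axis.

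Interferon gamma response genes were the group with the largest rise. All 24 listed genes were tested and all 24 were higher in clone 1, with a median difference of 2.85 against 0.05 for all genes tested. Their differences ran from 1.26 to 4.98, the groups did not overlap for any of them, 23 of the 24 followed neither index, and all 24 were called with both indices as covariates. The summed level of the listed T and NK cell genes, given above, was higher in the same libraries, and its part in these rises was not tested. Of the 5 tested T and NK cell genes, 3 followed the macrophage index and 1 the fibroblast index. The interferon gamma response list and the genes below were chosen with results of these data known, so the count of 24 describes this clone and is not independent evidence. The genes with the largest rise cluster in a few families, and the 250 bases upstream of the RefSeq start of 5 of them are shown because they carry, or lack, the elements named above (GRCm38.p6, RefSeq sequence, written along the gene's strand, ISRE and GAS matches in capitals). Gbp5 and Igtp were picked after the matches were seen.
Ubd, chr17:37193642-37193891, plus strand: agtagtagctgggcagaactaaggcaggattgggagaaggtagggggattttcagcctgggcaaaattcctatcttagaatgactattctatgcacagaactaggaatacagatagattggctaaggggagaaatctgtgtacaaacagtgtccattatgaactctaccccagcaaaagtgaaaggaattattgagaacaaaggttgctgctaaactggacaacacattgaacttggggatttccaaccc
Gbp2, chr3:142620413-142620662, plus strand: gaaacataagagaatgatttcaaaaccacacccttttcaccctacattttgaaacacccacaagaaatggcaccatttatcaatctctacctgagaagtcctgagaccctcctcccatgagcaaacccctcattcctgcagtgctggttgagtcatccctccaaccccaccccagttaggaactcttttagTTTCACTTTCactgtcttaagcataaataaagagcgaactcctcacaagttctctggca
Gbp5, chr3:142496684-142496933, plus strand: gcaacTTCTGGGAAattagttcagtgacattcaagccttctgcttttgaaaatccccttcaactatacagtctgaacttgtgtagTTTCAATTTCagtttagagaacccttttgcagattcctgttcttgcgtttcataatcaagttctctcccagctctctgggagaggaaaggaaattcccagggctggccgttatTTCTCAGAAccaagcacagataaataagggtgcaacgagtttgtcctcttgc
Tgtp2, chr11:49064213-49064462, minus strand: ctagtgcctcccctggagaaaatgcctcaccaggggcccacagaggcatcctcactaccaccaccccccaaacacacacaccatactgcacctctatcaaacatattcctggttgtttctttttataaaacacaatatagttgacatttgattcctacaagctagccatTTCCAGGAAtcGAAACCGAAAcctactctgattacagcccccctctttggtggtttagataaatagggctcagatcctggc
Igtp, chr11:58199306-58199555, plus strand: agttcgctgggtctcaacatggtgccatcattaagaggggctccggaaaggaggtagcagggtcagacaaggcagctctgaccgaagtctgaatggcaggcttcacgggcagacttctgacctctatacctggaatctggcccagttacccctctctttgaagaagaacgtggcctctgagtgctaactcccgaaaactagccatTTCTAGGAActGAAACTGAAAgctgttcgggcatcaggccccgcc

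The ISRE was searched as GAAA, 2 bases of any kind and GAAA, and the GAS element as TTCNNNGAA, where N is any base, both on either strand, and matches of both were allowed to overlap. In Igtp and Tgtp2 the GAS match lay directly before the ISRE match: they started 45 and 34 bases before the start of Igtp and 81 and 70 bases before that of Tgtp2. Gbp2 had an ISRE match starting 59 bases before its start, Gbp5 had 1 ISRE match and 2 GAS matches, and the Ubd window had no match of either kind. Of the 24 called interferon gamma response genes 15 had a promoter in the table, and 11 of these (73.3%) held an ISRE match, against 3.38% of the 10196 tested genes with a promoter. A GAS match stood in 7 of the 15 (46.7%) against 7.4%. Among all genes with a promoter, 14.1% of the 305 called higher and 3.95% of the 152 called lower held an ISRE match, and 12.8% and 5.26% a GAS match. A match is a description of letters and shows no binding.

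Ubd, which encodes a ubiquitin-like modifier induced by cytokines (chromosome 17, 37193892 to 37196095), was at 0.974, 0.238 and 0.692 TPM in WT and at 48.9, 46.2 and 53.9 TPM in clone 1. All 3 WT libraries were below 1 TPM, and the lowest of clone 1 was at 46.2 TPM (4.98, SE 0.24, adjusted p = 1.18e-08). Gbp2, a guanylate-binding GTPase (chromosome 3, 142620602 to 142638008), was at 25.6, 16.8 and 13 TPM in WT and at 273, 256 and 315 TPM in clone 1 (3.91, SE 0.26, adjusted p = 2.55e-07). WT replicate 3, whose macrophage index of 7.48 lay within the range of clone 1, had the lowest Gbp2 of the 6 libraries, and clone 1 replicate 1, with an index of 5.92, had 273 TPM. The part of macrophage RNA in the rise of Gbp2 was not tested. The Gbp2 relatives Gbp3 (3.23), Gbp4 (3.62), Gbp5 (3.14) and Gbp6 (2.70) rose too, and Gbp7 (1.96), Gbp8 (1.74) and Gbp9 (1.51) rose less. Members of this family are similar in sequence, and how Salmon divided shared reads between them is not known.

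Immunity-related GTPases rose beside them. Tgtp2 was at 7.35, 1.64 and 1.55 TPM in WT and at 94.0, 78.7 and 91.4 TPM in clone 1 (4.53, SE 0.36, adjusted p = 1.26e-06), and its near-identical copy Tgtp1 rose by 4.0, so the split between both is uncertain. Igtp was at 19.0, 14.5 and 14.4 TPM in WT and at 94.4, 115 and 123 TPM in clone 1 (2.72, SE 0.19, adjusted p = 3.39e-07). Iigp1 was at 13.5, 2.02 and 2.61 TPM in WT, highest in replicate 1, and at 81.6, 69.8 and 85.8 TPM in clone 1 (3.88). The regulators Irgm1 (1.76) and Irgm2 (2.0) and the large GTPase gene Gvin1 (2.97) were also higher.

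The chemokine genes Cxcl9 and Cxcl10, whose products draw activated T cells through the receptor CXCR3, both rose. Their relative Cxcl11, which the gene annotation lists as a polymorphic pseudogene, rose as well. Cxcl9 (chromosome 5, 92321347 to 92328079) was at 10.3, 4.02 and 1.90 TPM in WT and at 121, 124 and 150.1 TPM in clone 1 (4.59, SE 0.39, adjusted p = 2.60e-06). Cxcl10 was at 12.4, 10.2 and 6.34 TPM in WT and at 88.3, 85.8 and 96.3 TPM in clone 1 (3.14), and Cxcl11 rose by 1.73. Ido1, which encodes an enzyme that breaks down tryptophan, was at 1.29, 0.821 and 0.496 TPM in WT and at 21.6, 13.7 and 18.4 TPM in clone 1 (3.34, SE 0.31, adjusted p = 7.36e-06). Cd274, which encodes the checkpoint ligand PD-L1, was at 6.89, 4.65 and 6.82 TPM in WT and at 12.3, 19.7 and 17.4 TPM in clone 1, without overlap (1.29, SE 0.20, adjusted p = 8.13e-04). The transcription factor gene Irf1 was higher as well, and rose from 55.9, 57.9 and 56.9 to 127, 146 and 149 TPM (1.29). Socs1, a feedback inhibitor of JAK kinases, rose by 1.26 and was the 1 gene of the list that followed the macrophage index.

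**Figure D3:**
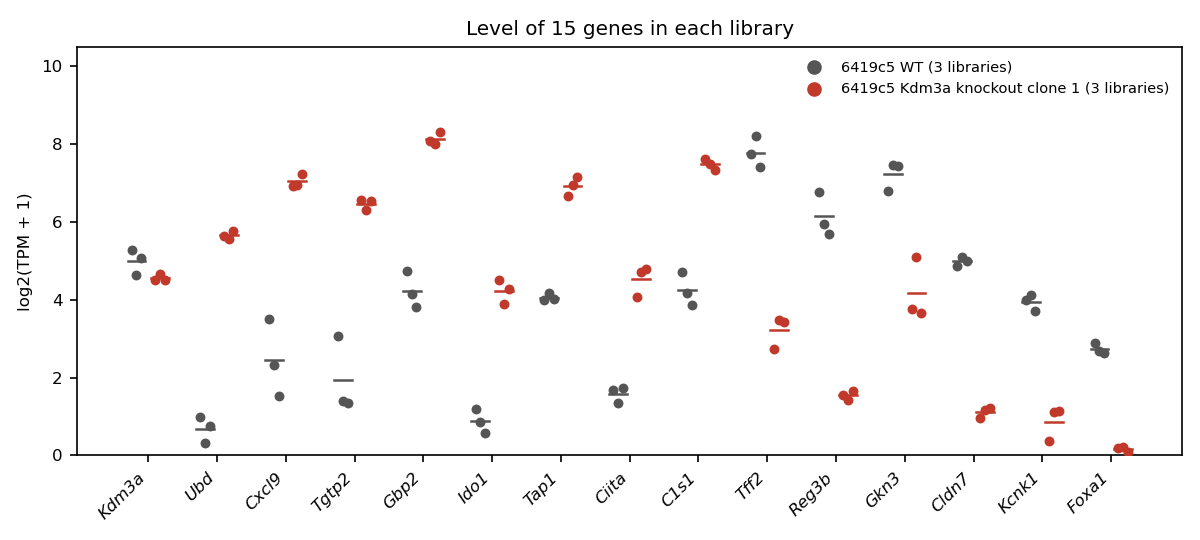
Each point is 1 library, at its log2(TPM + 1) on the y axis, for 15 genes on the x axis, with WT in grey, clone 1 in red and a bar at the mean of 3 libraries. The groups overlap for Kdm3a alone among these 15 genes. The interferon genes lie higher in clone 1 and the genes from Tff2 to Foxa1 lower.

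Of the ligands and receptors of the pathway none was called. Ifng, Ifnl2 and Ifnl3 were listed at 0 in all 6 libraries, and Ifnb1 was listed at 0 in 5 of them and at 0.130 TPM in WT replicate 3. At unknown depth, 0 does not show absence. None of the 9 tested genes for interferon receptors and their kinases passed the test by limma, while 2 had an unadjusted p under 0.05 (median difference 0.22). Groups did not overlap for 2 of the 9, both higher in clone 1, against 13.2% of all genes tested. Ifngr1, a chain of the interferon gamma receptor, was at 192, 148 and 192 TPM in WT and at 169, 189 and 167 TPM in clone 1 (-0.01, SE 0.14, adjusted p = 0.978). Ifngr2, the other chain, was at 204, 213 and 188 TPM in WT and at 216, 249.7 and 241 TPM in clone 1 (0.22, SE 0.08, adjusted p = 0.159). Jak1 was at 52.9, 41.8 and 56.7 TPM in WT and at 53.8, 64.6 and 59.1 TPM in clone 1 (0.23, SE 0.12, adjusted p = 0.37). Of the 11 genes of nucleic acid sensing 3 rose: Adar, an RNA editing enzyme (0.56), Tmem173, which encodes the sensor adaptor STING (25.4, 25.4 and 32.8 TPM in WT, 36.1, 66.5 and 64.2 TPM in clone 1, 0.93), and Samhd1, a nucleotide hydrolase (0.83). The call of Samhd1 was lost without any 1 of WT replicate 1, WT replicate 2, clone 1 replicate 2 and clone 1 replicate 3 (adjusted p 0.111 to 0.132) and with median-of-ratios scaling (0.0631). Tmem173 was not called with the 6 libraries alone (adjusted p = 0.172) or with the 9 libraries of 6419c5 (0.0741).

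Genes named for type I interferon rose less. Of 33 tested, 27 were higher and none lower (median 1.13, range 0.23 to 2.27), and 8 of the 33 followed the macrophage index, among them 5 of the 6 that did not pass. With both covariates 24 were higher, and with the 6 libraries alone 15. Zbp1, a sensor of Z-form nucleic acids, was at 8.42, 15.2 and 18.6 TPM in WT and at 48.6, 81.8 and 81.1 TPM in clone 1 (2.27, SE 0.28, adjusted p = 1.22e-04); it followed the macrophage index and was 2.13 with both covariates (adjusted p = 1.70e-06). Cmpk2, a nucleotide kinase, was at 1.17, 1.55 and 2.50 TPM in WT and at 8.03, 9.11 and 8.52 TPM in clone 1 (1.83). The antiviral genes Ifit1 (1.45), Ifit2 (1.56), Ifit3 (2.02) and Rsad2 (1.71) rose too. Stat2 was at 13.5, 15.3 and 18.2 TPM in WT and at 28.2, 41.4 and 37.7 TPM in clone 1 (1.13), and Irf9 rose by 0.66, a call lost without WT replicate 1, WT replicate 2, clone 1 replicate 2 or clone 1 replicate 3 (adjusted p 0.0761 to 0.0943) or with both covariates (0.0775). Many of these genes also answer to interferon gamma, so the lists are not separate readouts of 2 ligands. An ISRE match stood in 9 of the 19 called genes that had a promoter in the table (47.4%) and a GAS match in 3 (15.8%).

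MHC class I genes and the machinery that loads them rose in nearly every step. Of 23 tested, 19 were higher and none lower, with a median of 1.66; 11 of the 23 followed the macrophage index, and 19 were higher with both covariates. B2m, the shared light chain, was at 1204, 657 and 1269 TPM in WT and at 3712, 3834 and 3624 TPM in clone 1 (1.89, SE 0.19, adjusted p = 1.43e-05), and the heavy chain gene H2-K1 was at 628, 561 and 673 TPM in WT and at 3026, 3778 and 3610.2 TPM in clone 1 (2.48, SE 0.21, adjusted p = 2.65e-06). Tap1, a subunit of the peptide transporter (chromosome 17, 34187553 to 34197225), was at 14.8, 17 and 15.1 TPM in WT and at 101, 123 and 142 TPM in clone 1 (2.87, SE 0.25, adjusted p = 3.41e-06). Of the immunoproteasome genes, Psmb9 was at 25.9, 22.6 and 24 TPM in WT and at 176, 212 and 204 TPM in clone 1 (2.97), and Psmb8 (2.75) and Psmb10 (1.31) rose with it. Nlrc5, the transactivator of class I genes, was at 3.76, 3.14 and 3.73 TPM in WT and at 22.2, 27.6 and 28.0 TPM in clone 1 (2.56, SE 0.17, adjusted p = 2.55e-07). An ISRE match stood in 3 of the 15 called genes with a promoter in the table (20%) and a GAS match in 2 (13.3%). The 4 that did not pass were the general chaperone genes Canx (-0.23), Calr (0.04) and Pdia3 (-0.00) and the trimming peptidase gene Erap1 (0.84).

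Class Ib genes of the H2-Q region rose too. H2-Q8 was at 0, 3.55 and 2.09 TPM in WT and at 93.5, 87.3 and 106 TPM in clone 1 (5.32), and H2-Q7 at 3.19, 1.84 and 3.16 TPM in WT and at 37.7, 39.2 and 58.5 TPM in clone 1 (3.62). These genes are near-identical copies, so which of them carried the reads is uncertain.

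MHC class II genes, which macrophages express strongly and epithelial cells take up under interferon gamma, were higher for all 9 tested (median 2.59, range 1.5 to 2.94). Ciita, their transactivator (chromosome 16, 10480059 to 10528418), was at 2.22, 1.55 and 2.32 TPM in WT and at 15.9, 25.3 and 26.7 TPM in clone 1 (2.94, SE 0.27, adjusted p = 7.04e-06), and it followed neither index. Cd74, the invariant chain, was at 320.3, 362 and 676 TPM in WT and at 1986, 3665 and 3857 TPM in clone 1 (2.83, SE 0.51, adjusted p = 0.00356). The macrophage index was followed by Cd74 and the chain genes H2-Eb1, H2-Ab1 and H2-Aa, whose differences with both covariates were 2.55, 2.57, 2.19 and 2.36, all still called. The call of H2-Ab1 was lost without WT replicate 1 (adjusted p = 0.127), WT replicate 2 (0.0839), clone 1 replicate 2 (0.0969) or clone 1 replicate 3 (0.115). The part of macrophage RNA in the class II rise was not tested, and single libraries are given side by side. Clone 1 replicate 1 had 383 TPM of C1qa and 1986 TPM of Cd74, while WT replicate 3 had 1235 TPM of C1qa and 676 TPM of Cd74. Within each group Cd74 was lowest in the library with the lowest macrophage index. Among the 6 called class II genes with a promoter there was 1 with a GAS match (16.7%) and 0 had an ISRE match. H2-DMb1, a peptide loader, was at 28.1, 22.9 and 31.6 TPM in WT and at 125, 201 and 183 TPM in clone 1 (2.56).

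**Figure D4:**
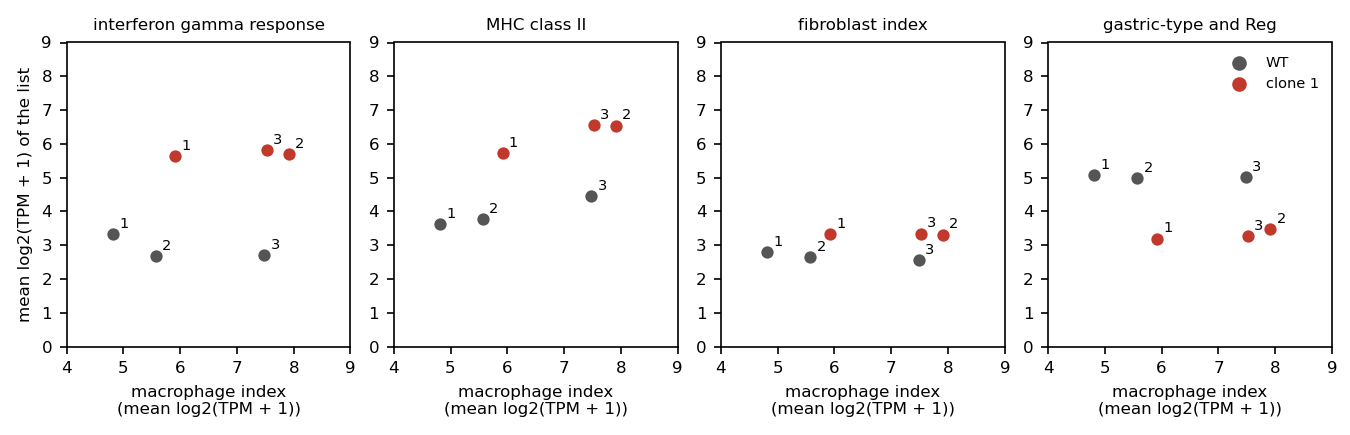
Each point is 1 of the 6 libraries, labelled with its replicate number, with its macrophage index on the x axis and the mean log2(TPM + 1) of a gene list on the y axis (WT grey, clone 1 red). WT replicate 3 lies at an index of 7.48, within the range of clone 1, and at 2.71 for interferon gamma response genes, where clone 1 lies between 5.64 and 5.81. How the lists relate to the index was not tested.

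Complement genes rose in part: 6 of 13 were higher and none lower (median 0.87). C1s1, a serine protease of the classical pathway (chromosome 6, 124530345 to 124542359), was at 25.2, 17.2 and 13.5 TPM in WT and at 195, 179.9 and 161 TPM in clone 1 (3.23, SE 0.25, adjusted p = 8.56e-07), and its partner C1ra was at 22.8, 21.7 and 20.8 TPM in WT and at 82.0, 98.2 and 98.8 TPM in clone 1 (2.04). C3, the central component, was at 442, 508 and 259 TPM in WT and at 1618, 1664 and 1579 TPM in clone 1 (2.06, SE 0.29, adjusted p = 4.61e-04). Cfb (0.75), C2 (0.87) and C1rl (1.13) rose less, and the fibroblast index stood higher beside all of them. C1s1, C1ra and C3 were still called with both indices as covariates (2.96, 1.65 and 1.79), and C2 was not (0.58, adjusted p = 0.203; adjusted p 0.0509 to 0.134 without any 1 of the 6 libraries).

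Of 14 tested chemokine and growth factor genes that act on myeloid cells, 2 were higher. Csf1, the growth factor of macrophages, was at 15.6, 17 and 13 TPM in WT and at 64.3, 51.0 and 48.7 TPM in clone 1 (1.78, SE 0.19, adjusted p = 2.49e-05); it followed the fibroblast index and was 1.54 with both covariates (adjusted p = 1.52e-04). Cx3cl1, a membrane-bound chemokine, rose from 61.7, 74.1 and 62.6 to 85.2, 99.7 and 96.9 TPM (0.50, adjusted p = 0.00256, or 0.0772 with median-of-ratios scaling and 0.101 with the 6 libraries alone). Ccl2, which draws monocytes, was at 18.4, 25.1 and 93.2 TPM in WT and at 76.9, 119 and 83.2 TPM in clone 1, with WT replicate 3 inside the range of clone 1 (1.35, SE 0.44, adjusted p = 0.107).

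Genes of the gastric and gut lining fell. Of 16 tested gastric-type and Reg genes 10 were lower and none higher, with a median of -1.96, and with both covariates 9 were lower (median -2.51). Tff2, a trefoil factor secreted with mucus (chromosome 17, 31141049 to 31144282), was at 212, 296 and 169 TPM in WT and at 5.68, 10.2 and 9.73 TPM in clone 1 (-4.57, SE 0.25, adjusted p = 4.22e-08). Tff1 was at 81.1, 68.5 and 46.7 TPM in WT and at 16.6, 5.19 and 6.89 TPM in clone 1 (-2.77, SE 0.47, adjusted p = 0.00211), while Tff3 did not pass (-1.16, adjusted p = 0.126). The gastrokine gene Gkn3 was at 111, 175 and 173 TPM in WT and at 12.5, 33.5 and 11.6 TPM in clone 1 (-3.06, SE 0.38, adjusted p = 1.54e-04), and Gkn1 fell from 81.6, 97.7 and 110.0 to 17.5, 40.7 and 17.8 TPM (-1.99). Replicate 2 was the highest library of clone 1 for both gastrokines. The call of Gkn1 was lost without clone 1 replicate 3 (adjusted p = 0.0652). With a pseudocount of 0.1 TPM 7 genes of this list were lower, and Gkn3 (adjusted p = 0.0511) and Gkn1 (0.193) were not called. Agr2, a protein disulfide isomerase of mucus-secreting cells, was at 125, 131 and 176 TPM in WT and at 20.9, 49.2 and 31.7 TPM in clone 1 (-2.12).

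The Reg genes encode secreted lectins of the injured pancreas and gut and lie within 1 stretch of chromosome 6. Reg3b (78370657 to 78373466) was at 109, 61.2 and 50.9 TPM in WT and at 1.94, 1.68 and 2.13 TPM in clone 1 (-4.60, SE 0.56, adjusted p = 1.24e-04). Reg1 (78422711 to 78428667) was at 127, 68.2 and 56.0 TPM in WT and at 1.40, 4.43 and 3.73 TPM in clone 1 (-4.33, SE 0.82, adjusted p = 0.005). Reg3g (78466269 to 78468872) was at 29.5, 11.7 and 12.1 TPM in WT and at 0.378, 0.377 and 0.445 TPM in clone 1 (-3.62, SE 0.57, adjusted p = 0.00112). Reg1 was not called with the 9 libraries of 6419c5 alone (adjusted p = 0.0586). In WT all 3 were highest in replicate 1, which had the lowest macrophage index, and no WT library overlapped clone 1 for any of them.

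Transcription factors of endodermal and ductal cells changed in part. Of 17 tested, 5 were lower and 1 higher. Foxa1, which opens chromatin in endodermal cells (chromosome 12, 57540628 to 57546916, minus strand), was at 6.41, 5.43 and 5.18 TPM in WT and at 0.137, 0.162 and 0.0539 TPM in clone 1 (-2.58, SE 0.24, adjusted p = 7.36e-06). Its relatives Foxa2 (0.09, adjusted p = 0.725) and Foxa3 (-0.40, adjusted p = 0.322) did not pass. Spdef, a factor of mucus-secreting cells, was at 10.1, 11.9 and 11.2 TPM in WT and at 3.13, 3.61 and 3.46 TPM in clone 1 (-1.45, SE 0.19, adjusted p = 2.32e-04, or 0.0594 with a pseudocount of 0.1 TPM). Klf5, a factor of epithelial progenitor cells (chromosome 14, 99298691 to 99315036), was at 100.2, 113 and 92.2 TPM in WT and at 63.5, 72.6 and 73.6 TPM in clone 1 (-0.54, SE 0.08, adjusted p = 7.86e-04). Sox9, a ductal factor, fell by 0.69 and Elf3 by 0.59. The call of Sox9 was lost without WT replicate 1 (adjusted p = 0.0924), WT replicate 2 (0.0882), clone 1 replicate 1 (0.0674) or clone 1 replicate 2 (0.0520). The call of Elf3 was also lost without any 1 of these 4 libraries (adjusted p 0.0694 to 0.174). Gata4 rose by 0.39 and kept its call without WT replicate 2 but not without any 1 of the other 5 libraries (adjusted p 0.0735 to 0.164). Gata6, Pdx1 and Hnf4a, which mark the endodermal lineage, did not pass (-0.00, -0.20 and -0.12). The number lower was 3 with pseudocount 0.1, with both covariates, and without WT replicate 1, WT replicate 2, clone 1 replicate 1 or clone 1 replicate 2.

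Epithelial genes fell in part. Of 21 tested epithelial genes 5 were lower and 1 higher (median -0.16). The keratin genes Krt8 (3962, 4339 and 3508 TPM in WT, 3633, 3498 and 3959.9 TPM in clone 1), Krt18 and Krt19 and the adhesion gene Cdh1 did not pass (-0.09, -0.10, -0.13 and 0.21). Of the 5 that fell, 3 were genes of claudins, proteins of tight junctions. Cldn7 (chromosome 11, 69964779 to 69967885) was at 28.4, 33.6 and 30.9 TPM in WT and at 0.94, 1.27 and 1.32 TPM in clone 1 (-3.88, SE 0.28, adjusted p = 4.76e-07). Cldn4 was at 15.7, 15.2 and 14.6 TPM in WT and at 4.31, 6.94 and 8.08 TPM in clone 1 (-1.15, adjusted p = 0.0209, or 0.0727, 0.0645 and 0.0800 without WT replicate 1, WT replicate 2 and clone 1 replicate 1), and Cldn6 fell from 49.1, 40.5 and 57.8 to 21.1, 11.4 and 14.5 TPM (-1.61). St14, a membrane protease of epithelia, fell by 1.39, and the fifth was Elf3, given above. With a pseudocount of 0.1 TPM Cldn4 (adjusted p = 0.408) and Cldn6 (0.0851) were not called. Epcam, an epithelial adhesion gene, was at 273, 237 and 236 TPM in WT and at 87.7, 199 and 149.9 TPM in clone 1, lower in every library without passing the test (-0.84, SE 0.30, adjusted p = 0.149). Cdh3, P-cadherin, rose by 0.67, a call kept without clone 1 replicate 2 but not without any 1 of the other 5 libraries (adjusted p 0.0548 to 0.119) nor with another scaling. The number lower was 3 without WT replicate 1, WT replicate 2 or clone 1 replicate 1.

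Among the other genes with the largest falls, Kcnk1, a potassium channel gene (chromosome 8, 125995170 to 126030685), was at 15.0, 16.4 and 12 TPM in WT and at 0.293, 1.16 and 1.19 TPM in clone 1 (-3.07, SE 0.25, adjusted p = 1.65e-06). Maob, a monoamine oxidase gene on chromosome X, was at 13.4, 7.47 and 7.28 TPM in WT and at 0.185, 0.0314 and 0.11 TPM in clone 1 (-3.18, SE 0.32, adjusted p = 1.58e-05). The noncoding RNA Dio3os, which lies beside the deiodinase gene Dio3 and runs the other way, was at 7.53, 7.78 and 5.99 TPM in WT and at 0.194, 0 and 0 TPM in clone 1 (-2.93, SE 0.16, adjusted p = 4.22e-08). The microRNA entry Mir3473d was at 7.42, 7.92 and 6.84 TPM in WT and listed at 0 in clone 1, and Mir425 was listed at 0 in WT and at 3.51, 10.6 and 26.3 TPM in clone 1, a call lost without clone 1 replicate 2 (adjusted p = 0.0514) or 3 (0.0864) and with both covariates (0.0676). Such short entries are uncertain in a library of long RNA, and no fold is given against 0.

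Calls in the other tumor programs can be set against 3.31% higher and 1.7% lower over all genes tested. Of 14 mesenchymal genes Sparc, a matrix protein gene, rose (0.75, following the fibroblast index; adjusted p 0.0514 to 0.0739 without WT replicate 2, WT replicate 3 or clone 1 replicate 1) and Twist1, a mesenchymal transcription factor, fell from 10.2, 11.7 and 8.27 to 2.94, 2.64 and 1.94 TPM (-1.65, SE 0.26, adjusted p = 0.00103). Of 8 basal-like and laminin genes the laminin chain gene Lama3 fell (5.43, 5.07 and 5.78 TPM in WT, 1.56, 1.84 and 1.49 TPM in clone 1, -1.29). Of 10 EGFR receptor and ligand genes the ligand gene Areg fell (51.4, 34.8 and 51.4 TPM in WT, 19.3, 12.9 and 13.7 TPM in clone 1, -1.52; -1.13 with both covariates, adjusted p = 0.0879; adjusted p 0.0593 to 0.0612 without WT replicate 1, clone 1 replicate 2 or clone 1 replicate 3). Egfr itself was at 24.4, 17.2 and 16.8 TPM in WT and at 21.5, 21.8 and 23.1 TPM in clone 1 (0.20, SE 0.21, adjusted p = 0.731). Of 14 genes driven by ERK signalling 3 fell: the phosphatase gene Dusp4 (-1.05), the transcription factor gene Etv4 (-0.72) and Fosl1 (-1.03; adjusted p = 0.00718, or 0.0535 with both covariates).

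Of 22 immediate early genes, which also respond to tissue dissociation, Nr4a1 (-1.66), Egr3 (-1.0) and Atf3 (-0.98) were lower and none higher. The call of Nr4a1 was lost without any of the libraries but clone 1 replicate 2, and that of Atf3 without any but WT replicate 3 and clone 1 replicate 2, and with both covariates (adjusted p = 0.104). Of 24 hypoxia and glycolysis genes Egln3 (0.53) and Car9 (0.53) were higher and Ak4 lower (-0.76). Car9 was no longer called without any 1 library other than clone 1 replicate 1, and Egln3 without clone 1 replicate 3 (adjusted p = 0.0504). With median-of-ratios scaling neither Car9 (adjusted p = 0.175) nor Egln3 (0.0612) was called. G6pdx (0.42) was the only call among 12 NRF2 antioxidant genes and was lost without WT replicate 1, clone 1 replicate 2 or clone 1 replicate 3 (adjusted p 0.0507 to 0.0627), and with median-of-ratios scaling (0.151). None of the 23 cell cycle genes (median -0.21), 21 cholesterol synthesis genes (-0.01) or 11 p53 and Cdkn2 genes (-0.01) was called by limma, with 2, 0 and 0 at an unadjusted p under 0.05.

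**Figure D5:**
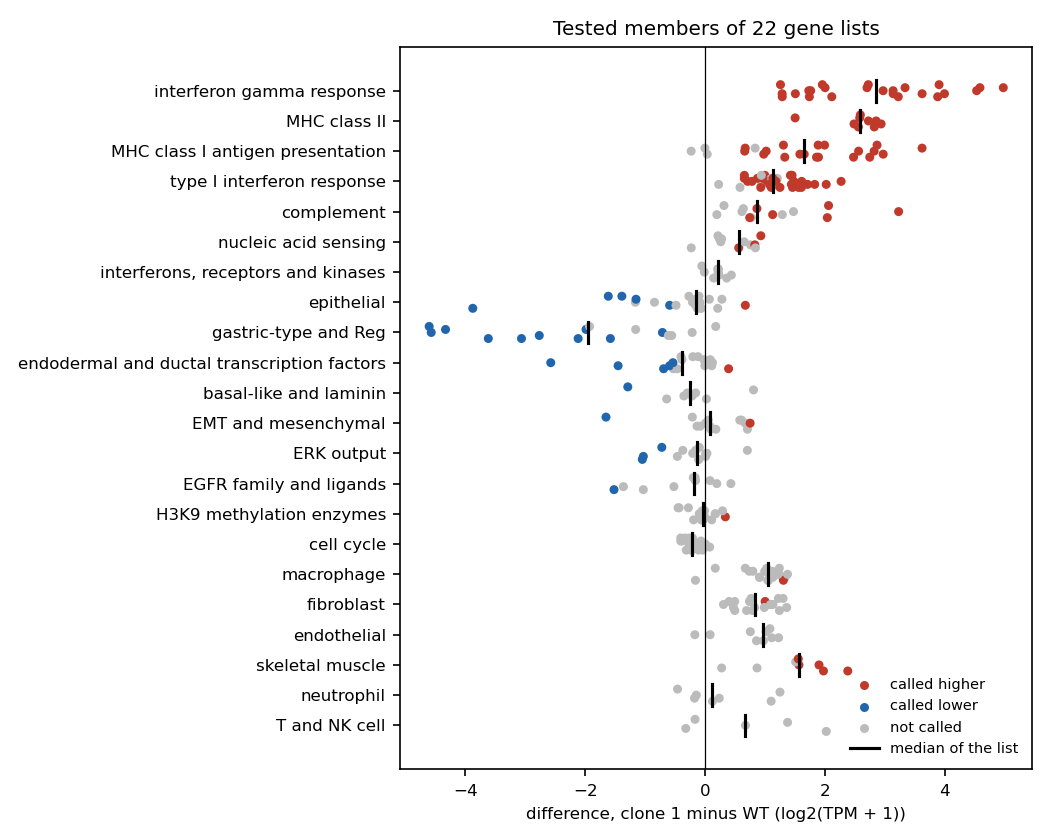
Each point is a tested gene of 1 of 22 lists, at its difference between clone 1 and WT on the x axis (log2(TPM + 1)), red where called higher, blue where called lower and grey where not called, with a bar at the list's median. The interferon gamma response and MHC class II lists lie wholly above 1, the gastric-type and Reg list reaches below -4, and the macrophage, fibroblast and endothelial lists are shifted upward with 1, 1 and 0 called genes.

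Clone 2 of the same line gave other levels for many of these genes. The clones were compared with each other directly, in a contrast without the WT libraries, which entered only the estimate of the spread. Between them 27.2% of the genes tested differed, 19.9% lower in clone 2 and 7.3% higher. Of the 24 interferon gamma response genes 21 were lower in clone 2 than in clone 1 and none higher (median -1.06). Ubd was at 13.8, 12 and 18.4 TPM in clone 2, between WT and clone 1 (clone 2 minus clone 1 -1.70, SE 0.24, adjusted p = 1.65e-04), and Gbp2 was at 123, 92.5 and 174 TPM (-1.15, adjusted p = 0.00486). Iigp1 stood at 60.3, 110.1 and 92.7 TPM in clone 2 and did not differ beyond the spread (0.11, adjusted p = 0.891). H2-Q8, with 0, 0 and 7.04 TPM in clone 2, and H2-Q7, with 1.06, 1.13 and 2.36 TPM, overlapped WT there (clone 2 minus clone 1 -5.59 and -4.21, both called). All 9 class II genes were lower in clone 2, where macrophage genes were also far lower: C1qa was at 37.6, 24.7 and 52.9 TPM.

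The falling genes split between the clones. Tff2 was at 71.5, 82.2 and 71.0 TPM in clone 2, well above clone 1 (3.03, SE 0.25, adjusted p = 2.40e-06), and Tff1 was at 45.7, 35.9 and 58.4 TPM (2.30, adjusted p = 0.00274). Twist1 was at 16.2, 17.9 and 20.1 TPM in clone 2, also above clone 1 (2.45, adjusted p = 1.90e-05). Cldn7, at 0.48, 1.96 and 1.77 TPM, and Reg3b, at 0.415, 7.62 and 0.245 TPM, did not differ from clone 1 beyond the spread (0.08 and -0.23, adjusted p = 0.863 and 0.8). Gkn3, at 1.69, 3.49 and 3.45 TPM, Cldn4, at 0.229, 0.117 and 0.162 TPM, and Epcam, at 20.2, 34.1 and 26.2 TPM, were lower in clone 2 than in clone 1 (-2.26, -2.64 and -2.35, all called).

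The 6694c2 line has its own WT and knockout libraries, none of which the clone 1 contrast uses. Between the clone 1 effect and the mean effect of the 6694c2 knockouts 2.98% of the genes tested differed. Of the 24 interferon gamma response genes 5 rose less in clone 1 than in 6694c2 and 0 more, and the median 6694c2 effect was 3.44. The mean log2(TPM + 1) of this list was lower in 6694c2 WT (1.96 to 2.33) than in 6419c5 WT (2.68 to 3.32). Irgm2 differed by 2.0 in clone 1 and by 2.88 in 6694c2 (difference of the effects -0.88, SE 0.16, adjusted p = 0.00643). Ubd, with 4.98 and 3.97, did not differ between the lines beyond the spread (adjusted p = 0.106). Foxa1 differed by -2.58 in clone 1 and by -0.04 in 6694c2 (difference of the effects -2.53, SE 0.32, adjusted p = 4.79e-04).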

How the data were processed

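RNA sequencing was done on total RNA of sorted tumor cells, with libraries made by a commercial company per the labels. The authors deposited TPM values per gene symbol, quantified with Salmon on mm10 per the submitters' processing notes; the name of the deposited table mentions a batch that no label describes, so whether the TPM were adjusted for one is unknown; the Salmon version and annotation are not given in the sources used here, and every column sums to 1e+06. The columns name the clones by letter, read here in alphabetical order (A for clone 1). Values were analysed as log2(TPM + 1) in R 4.3.3 with limma 3.58.1: 1 model of 6 group means over 18 libraries (12 residual degrees of freedom), a mean-variance trend, the contrast of clone 1 minus WT, and Benjamini-Hochberg adjustment over the 13377 genes whose mean in the 6 libraries compared reached 1 TPM. The fit was run on simulated data with independent normal errors for each gene. These hold no shared macrophage or fibroblast variation, so the run checks the code and not the calls. The members and the 37 gene lists were chosen with earlier results of these data known. Named genes are the 12 largest rises and falls among called genes whose groups do not overlap and whose higher group reaches 5 TPM, 8 each way that follow neither index, Kdm3a, Klf5 and Egfr, and up to 4 members of a list with the smallest p; other genes were chosen after their values were seen. Alternatives changed the pseudocount, filter, scaling, libraries, covariates and block. Positions are from GENCODE release 21 on GRCm38 (23980 of 24493 symbols matched), promoters from RefSeq on GRCm38.p6 (10196 of 13377 genes matched). 1 gene of the interferon lists is counted but not reported singly here.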

Additional observations from a re-analysis of the deposited data

Results flagged for a closer look

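The effect of clone 1 was set against the mean effect of the knockout clones of 6694c2, a contrast that shares no library with it, and the difference was tested in the same limma model (Benjamini-Hochberg adjusted p under 0.05, which 2.98% of the genes tested passed). The genes below are those described in the text for which this difference passed. Values are the clone 1 effect minus the 6694c2 effect on the log2(TPM + 1) scale.

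Among the gastric-type genes the difference was -4.47 for Tff2 (SE 0.33, adjusted p = 2.95e-06), where the 6694c2 effect was -0.10, -2.87 for Tff1, -3.26 for Gkn3, -2.84 for Gkn1, -2.29 for Agr2 and -4.56 for Olfm4. The mean of WT 6694c2 was 345 TPM for Tff2 and 407 TPM for Tff1, but 0.286 TPM for Gkn3, 0.398 TPM for Gkn1, 1.99 TPM for Agr2 and 0.36 TPM for Olfm4, so there was little or no level to fall from for these 4. The clone 1 effect was -3.06 for Gkn3, -1.99 for Gkn1, -2.12 for Agr2 and -2.46 for Olfm4. Each fall was smaller than the difference, so the mean 6694c2 effect was above 0 for all 4, largest for Olfm4 and small for Gkn3 and Agr2. No test of the 6694c2 effect alone is given here. Reg3b differed by -3.75 (6694c2 effect -0.86). Foxa1 differed by -2.53 (SE 0.32, adjusted p = 4.79e-04, 6694c2 effect -0.04) and Spdef by -1.01. Cldn7 differed by -2.86 and Kcnk1 by -1.33, both of which were also lower in the 6694c2 knockouts (-1.01 and -1.74, from WT means of 1.99 and 4.25 TPM). Epcam differed in the other direction (2.19, 6694c2 effect -3.03), as did Egfr (1.79, 6694c2 effect -1.59) and Cdh3 (1.25).

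Of the interferon genes described, 8 rose less in clone 1 than in the 6694c2 knockouts. The difference was -0.94 for Nlrc5, -0.90 for Irgm1, -0.88 for Irgm2, -0.99 for Gbp8, -1.39 for Gbp9, -1.37 for Ifi47, -1.34 for Sp140 and -1.84 for the class II loader H2-DMb1. The myeloid genes Chil3 (-2.97) and Cybb (-1.37) did so too, and Zbtb46 rose more in clone 1 (0.91). The WT levels differed between the lines. The mean log2(TPM + 1) of the interferon gamma list was 1.96 to 2.33 in 6694c2 WT and 2.68 to 3.32 in 6419c5 WT. It was 4.92 to 5.89 in the 6694c2 knockouts and 5.64 to 5.81 in clone 1. For class II these means were 1.57 to 2.68, 3.62 to 4.46, 5.33 to 6.25 and 5.74 to 6.55. Among the remaining genes the difference was -4.42 for Mir3473d, -2.53 for En1, -2.27 for Sprr1a, -1.81 for Ltf, -1.43 for Galnt12, -1.10 for Fosl1, -1.07 for Dio3, -0.99 for Dio3os and -0.77 for Etv4. It was 0.56 for Cx3cl1, 0.63 for Egln3, 1.09 for Ak4, 1.40 for Hpx, 1.68 for Car9 and 2.9 for Taar4.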

How the results depend on the processing

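Between 23 and 24 of the interferon gamma response genes, 18 and 20 of the MHC class I genes and 6 and 9 of the MHC class II genes were higher under every alternative run. No called gene of the text or the naming rule changed its direction. Genes of the text or the naming rule, called or not, gave 4536 comparisons under an alternative, of which 4262 kept their side of the threshold. A called gene lost its call in 203 comparisons, and a gene not called gained one in 71. Genes not called cannot lose a call, so the 203 fall on the called genes alone. With the 6 libraries alone 185 genes were higher and 83 lower, and 15 type I interferon, 2 endodermal factor, 3 epithelial and 1 muscle gene were called. A mean of at least 5 TPM left 147 genes lower, 3 endodermal factors, 3 epithelial genes and 2 muscle genes. Quantile normalization gave 342 genes lower. A pseudocount of 0.1 gave 3 endodermal factors, 2 epithelial genes and 1 muscle gene. Without a filter 9 muscle genes were called, and with the 9 libraries of 6419c5 none (0) and 3 endodermal factors. Both covariates left 3 endodermal factors. Without the 3 libraries that stood apart, an alternative chosen after seeing the data, 705 genes were higher. Leaving out 1 library gave 292 to 476 genes higher, 137 to 234 lower, 3 to 5 endodermal factors, 3 to 5 epithelial genes and 0 to 7 muscle genes.

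The fibroblast index difference was 0.80 with a pseudocount of 0.1, 0.43 with 5 and 0.56 with quantile normalization. With a correlation minimum of 0.5, 108 higher and 14 lower genes followed the macrophage index and 69 and 20 the fibroblast index; with 0.8 these were 27, 1, 18 and 1. The replicate number as a block gave 356 genes higher and 180 lower and 3 epithelial genes in place of 5, but the numbers were not taken to pair libraries: the deviations of same-numbered WT and clone 1 libraries correlated at 0.474, 0.0706 and 0.145, and WT replicate 2 did so more with clone 1 replicate 3 (0.115). As TPM hold no read numbers, the precision of genes at low TPM cannot be given.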

Other observations

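Genes outside the lists, chosen after their values were seen, extended both directions. Among those higher in clone 1 were further interferon-related genes. The nuclear body genes Sp100 (8.49, 6.42 and 17.9 TPM in WT, 29.4, 48.3 and 34.2 TPM in clone 1, difference 1.77), Sp110 (2.14, following the macrophage index) and Sp140 (2.10) rose, as did Batf2, a transcription factor gene (6.02, 6.02 and 3.97 TPM in WT, 21.1, 29.0 and 33.0 TPM in clone 1, 2.17). The GTPase genes Gbp10 (2.36) and Ifi47 (1.96) and the apolipoprotein gene Apol10b (2.79) were higher. Tnfsf10, which encodes the death ligand TRAIL, was at 0.961, 0.989 and 0.817 TPM in WT and at 4.43, 7.24 and 6.74 TPM in clone 1 (1.87, SE 0.23, adjusted p = 1.23e-04). Pdcd1lg2, which encodes the checkpoint ligand PD-L2, was at 0.307, 0.333 and 0.875 TPM in WT and at 2.26, 4.22 and 7.84 TPM in clone 1 (1.84, SE 0.34, adjusted p = 0.00427). Acod1, the itaconate-forming enzyme of activated myeloid cells, was at 0.926, 1.44 and 0.621 TPM in WT and at 8.45, 11.2 and 12 TPM in clone 1 (2.54, SE 0.29, adjusted p = 6.01e-05), and it followed neither index. In a fit of the 6 libraries alone Sp100, Sp110, Pdcd1lg2 and Dmbt1 were not called (adjusted p 0.0585 to 0.0937).

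Among those lower, Sprr1a, a cornified envelope gene of squamous epithelia, was at 675, 596 and 700.3 TPM in WT and at 190.2, 173 and 164 TPM in clone 1 (-1.90, SE 0.08, adjusted p = 3.06e-09), and at 429.9, 475 and 475 TPM in clone 2. The secreted defence genes Olfm4 (6.03, 3.76 and 6.66 TPM in WT, 0.0267, 0.109 and 0.348 TPM in clone 1, -2.46), Ltf (-1.97) and Dmbt1 (-1.32) were lower, though Dmbt1 was not called without WT replicate 1, WT replicate 2, clone 1 replicate 1 or clone 1 replicate 3 (adjusted p 0.0837 to 0.125). So were Aldh1a3, an enzyme of retinoic acid synthesis (192, 154 and 165 TPM in WT, 66.8, 61.5 and 68.8 TPM in clone 1, -1.36), the mucin glycosyltransferase gene Galnt12 (-2.32), the GABA receptor gene Gabrp (-1.26) and the homeobox gene En1 (27.9, 23.2 and 30.7 TPM in WT, 3.07, 4.54 and 5.08 TPM in clone 1, -2.44). Dio3, the neighbour of Dio3os, was also lower (-1.76).

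Taar4, an olfactory trace amine receptor gene (chromosome 10, 23960494 to 23961537), was listed at 0 in all 3 WT libraries and in the other 12 libraries, and at 6.93, 6.30 and 6.11 TPM in the 3 libraries of clone 1 (limma adjusted p = 3.06e-09). Groups listed at 0 throughout show no spread, which lowers the shared estimate, so this p-value says little about the spread in clone 1. Taar4 passed the filter of 1 TPM through clone 1 alone. Hpx, which encodes the heme carrier hemopexin, was at 5.82, 5.37 and 3.91 TPM in WT, 33.8, 17.2 and 24.6 TPM in clone 1 and 3.95, 4.22 and 7.03 TPM in clone 2 (2.08, SE 0.24, adjusted p = 7.43e-05). Foxj1, a transcription factor gene of ciliated cells, was at 2.12, 3.21 and 2.85 TPM in WT and at 15.9, 10.05 and 11.6 TPM in clone 1 (1.85, SE 0.23, adjusted p = 1.68e-04). Acta2, a smooth muscle and myofibroblast actin gene that followed the fibroblast index, rose by 1.47, or 1.05 with both covariates, and Pdpn, which followed the macrophage index, by 1.92, or 1.41.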
